A study of Homo sapiens with 16 samples.

Results

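Stromal-like cells of kidney organoids were taken from 2 single-cell libraries as the cells in which RNA of the fibroblast matrix genes COL1A1, COL3A1, DCN and LUM made up a large part of all RNA. A cell was a member when the unique molecular identifiers (UMIs, one per captured RNA molecule) of these 4 genes summed to at least 10 and to at least 40 per 10000 of its UMIs. It also had to hold fewer than 2 UMIs of the mitosis genes MKI67 and TOP2A together and no UMI of the vessel-wall genes GJA4 and ESAM. Of 35066 cells with more than 500 detected genes, 2161 were members. The members were thus chosen on measured values. Levels of the 4 gate genes are given only to describe the gate and its limits, and no result is drawn from them.

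The organoids were grown from UM77-2, one human embryonic stem cell line. They were treated with vehicle (VC, buffered saline) or with tumor necrosis factor alpha (TNFα, 5 ng/ml) for 24 h, dissociated on day 24 with a protease that works in the cold, and sequenced as 1 whole-well library per condition. A control single-cell library of day 25 was not analysed here. Bulk RNA came from isolated organoid spheroids: set 1 held 1 library on each of days 21, 25 and 29, set 2 held 2 libraries on each of these days, and the TNFα set held VC and TNFα (5 ng/ml) at 24 h and 48 h, with 1 library each. All libraries share the one line, and no label says that replicates came from separate cultures. The p-values below therefore measure only the spread between these samples, which the models pool in part over genes.

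Stromal cells of the kidney, which arise from FOXD1-expressing progenitors of the embryo, lie between tubules and vessels, lay down fibrillar collagen and proteoglycans and send growth factors to the epithelium. Some become pericytes, mesangial cells or smooth muscle. In injured kidneys, fibroblasts activated by TGFβ and by inflammatory signals gain contractile actin and deposit scar matrix. TNFα binds TNFRSF1A, which frees NF-κB from its inhibitors and lets it enter the nucleus, where it starts transcription of chemokine, adhesion and feedback genes.

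In the VC library 1317 of 11906 cells were stromal-like (11.1%, exact 95% interval 10.5% to 11.6%, which covers counting error only). In the TNFα library 844 of 23160 cells were stromal-like (3.64%, 3.41% to 3.89%). Each condition was 1 library, so this difference has no replicate check and no test. The libraries differed in depth: the median cell held 6359 UMIs under VC and 2599 under TNFα, and the stromal-like cells held 5081 and 3780. When every cell was thinned to 2500 UMIs, which left out 1630 VC and 10906 TNFα cells as too shallow, the shares were 13.1% and 6.64%. When the gate was loosened to at least 5 UMIs and 20 per 10000, the shares were 20.6% and 20.9%, so the order of the libraries rested on where the gate was set. Among all other cells, gate genes took a median of 3.71 UMIs per 10000 under VC and 12.5 under TNFα. Over all cells, before the gate was applied, the medians were 5.25 and 12.9. The libraries thus differed in this rate before gating, and the cause was not tested.

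**Figure D1:**
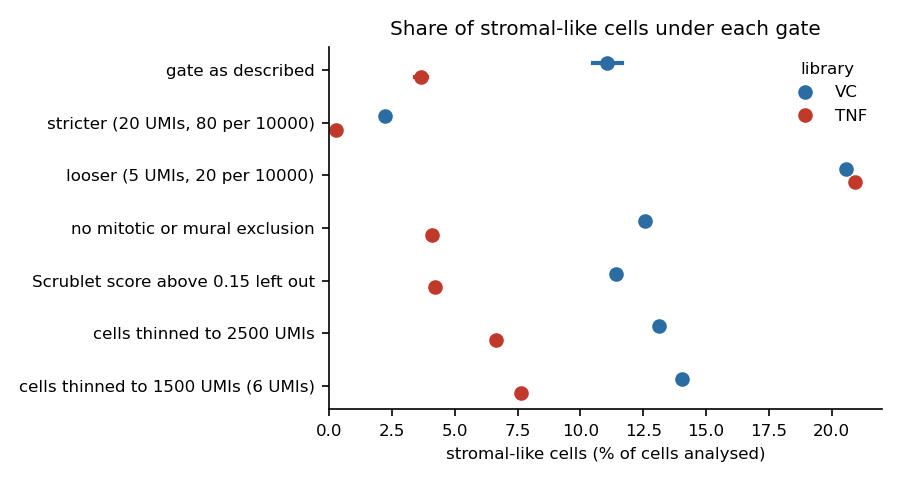
Percent of cells called stromal-like (x axis) under each form of the gate (y axis), with one point per library and exact 95% binomial intervals. VC lay above TNFα under the gate as set (11.1% against 3.64%), and the points met under the looser gate (20.6% against 20.9%).

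The edge of the gate was crowded. A rate of 40 to 50 per 10000 was found in 360 of the VC and 353 of the TNFα members, and a rate of 30 to 40 in 546 and 564 cells just outside. The members' median rate was 60.1 under VC and 52.2 under TNFα. The mitosis genes kept out 170 and 98 cells and the vessel-wall genes 9 and 10. Mitochondrial genes took 2.73% and 3.01% of the members' summed UMIs. The 2 libraries shared 82 barcodes, and no shared barcode was a member in both. A doublet score above 0.15 was held by 28 of 1317 VC members (2.13%) and 50 of 844 TNFα members (5.92%), and by 5.70% and 19.2% of all other cells.

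Markers that the gate did not use were examined next, with UMIs summed over cells and given as CPM, the UMIs of a gene scaled to a common total of 1000000 UMIs. A gene with at least 50 UMIs was counted as higher or lower when (CPM + 10) differed at least 2-fold. Of 8 mesenchymal check markers (COL1A2, COL5A1, COL6A3, PDGFRA, PDGFRB, TWIST1, PRRX1 and VIM), 7 were higher than in all other cells under VC and 6 under TNFα. The intermediate filament gene VIM was not among them in either library (3096 against 2221 CPM under VC, 2623 against 2663 under TNFα), nor was TWIST1 under TNFα. Across all genes, 357 of 17533 (2.04%) were higher and 526 (3.0%) lower in stromal-like cells under VC. Under TNFα 191 of 17148 (1.11%) were higher and 309 (1.80%) lower, and 147 genes were higher in both libraries. Since the gate picked cells by correlated genes, these ratios describe the cells and carry no test.

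Markers of most other cell types were lower than in the remaining cells but not absent. The 13 podocyte genes, which mark the filtering cells of the glomerulus, summed to 701 CPM in stromal-like VC cells against 2010 in all others and 13697 in cells gated on podocyte genes, and to 671 against 1850 under TNFα. Their most abundant gene was TCF21, at 160 CPM, which kidney stroma also expresses. The proximal tubule list summed to 29.8 against 351 CPM under VC and 25.5 against 258 under TNFα, with APOA4, GLYAT and SLC22A2 at 0. The neuron list summed to 590 against 2574 and 483 against 1410, led by TUBB3 at 228 CPM under VC. Of 7 endothelial genes with enough UMIs 1 was higher and 1 lower under VC, and the list summed to 139.7 against 208 CPM, led by EGFL7 at 67.6, with PECAM1 and CDH5 at 0. The leukocyte list summed to 14.9 against 35.3 CPM, led by AIF1 at 11.6, with PTPRC, LYZ, CSF1R and CD3E at 0. Mural markers, of pericytes and smooth muscle, went the other way, at 267 against 149 CPM under VC and 227 against 179 under TNFα, led by PDGFRB, and 2 of 10 were higher and 1 lower under VC. The part of podocyte and neuron RNA in the results below was not tested beyond the values given.

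The 20 leading genes, ranked by their VC ratio among those at least 2-fold higher in both libraries, are described by what they encode. C7, a complement component (ENSG00000112936, chromosome 5, 40909492 to 41020216 of GRCh38, GENCODE 44), stood at 387 CPM against 29.2 in other VC cells, a ratio of 13.3 (95% counting interval 12.6 to 14.0), and at 430 against 91.9 under TNFα. In cells gated on podocyte genes it stood at 7.13 CPM under VC. OGN, a small leucine-rich proteoglycan (ENSG00000106809, chromosome 9, 92383268 to 92404696), had the highest VC ratio of the 20, 164 against 10.2 CPM (16.2, 14.8 to 17.6), and 39.1 against 6.94 under TNFα. HGF, the ligand of the MET receptor (ENSG00000019991, chromosome 7, 81699010 to 81770438), stood at 87.8 against 7.30 CPM (12.04, 10.8 to 13.4), and at 0.679 in the podocyte gate. Each of the 20 was above the podocyte gate and the neuron gate in both libraries. Cells kept out by the vessel-wall or mitosis genes were above the members for some of the 20 and below for others. The 9 VC cells kept out by vessel-wall genes held 717 CPM of MGP against 312, and 11.6 of OGN against 164. VC cells kept out by mitosis genes held 1360 CPM of LGALS1 against 1227, and 310 of C7 against 387.

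**Figure D2:**
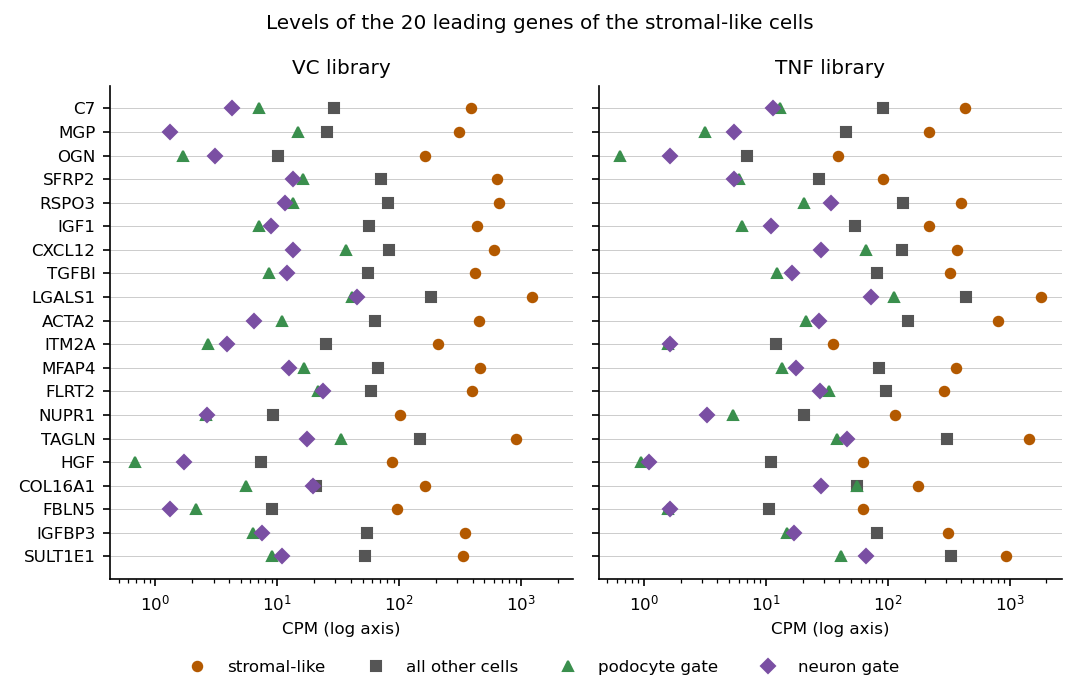
Level of each of the 20 leading genes in CPM (log x axis) in stromal-like cells, all other cells, podocyte-gated cells and neuron-gated cells of each library. Stromal-like cells lay farthest to the right for every gene, for example 387 CPM of C7 against 29.2 in all other VC cells.

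Further leading genes form elastic fibres and matrix. MGP, an inhibitor of calcification, stood at 312 against 25.4 CPM under VC. FBLN5, an elastic fibre protein, stood at 96.1 against 9.03, MFAP4, a microfibril protein, at 456 against 66.5, and COL16A1 at 164 against 20.9. TGFBI, a matrix protein induced by TGFβ, stood at 417 against 55.3. Signals to neighbouring cells were a second group. RSPO3, which amplifies Wnt signalling, stood at 655 against 81.0 CPM, SFRP2, a secreted Wnt modulator, at 629 against 71.0, IGF1 at 433 against 56.4 and CXCL12, the ligand of CXCR4, at 604 against 82.5. The contractile genes ACTA2, smooth muscle actin, and TAGLN stood at 451 against 63.7 and 901 against 148.

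Gene lists by role gave the same cells' wider profile under VC, to be read beside the 2.04% of all genes that were higher. Of 30 stromal transcription factors, 13 were higher and 1 lower. PRRX1 was among the 13, as were NFIA (512 against 112 CPM) and NR2F2 (929 against 377). FOXD1 was not, at 23.4 CPM in stromal-like cells, 51.4 in all others and 379 in podocyte-gated cells. Under TNFα only PRRX1 was higher, and FOXD1 was 1 of 2 that were lower. Of 27 genes of fibrillar collagens and their assembly, 14 were higher under VC and 11 under TNFα, and none lower. COL12A1, a collagen on the fibril surface, stood at 169 against 23.9 CPM, and PCOLCE, which speeds collagen trimming, at 473 against 111. Of 33 proteoglycan, elastic fibre and matricellular genes, 19 were higher under VC, among them POSTN (1042 against 183 CPM) and EMILIN1 (360 against 57.5). Of 21 matrix turnover genes 7 were higher and 1 lower, with the protease genes MMP2 at 141 against 35.8 CPM and FAP at 117 against 22.4.

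Among 43 growth factors and receptors, 9 were higher and 3 lower under VC. FGF7, a ligand made by mesenchyme for epithelial receptors, stood at 215 against 36.6 CPM, and PDGFRB, a receptor of stromal and mural cells, at 128 against 29.5. Of 27 Wnt ligands and modulators 6 were higher and 1 lower, with WNT4 at 165 against 37.9 CPM and the antagonist SFRP1 at 578 against 97.7. Of 18 contractile genes 9 were higher in each library. Of 5 adult fibroblast markers with enough UMIs, C7 and THY1 (248.8 against 58.6 CPM) were higher and S100A4 was lower, and PI16, DPT, CD34 and MFAP5 had no UMI in stromal-like VC cells. A count of 0 there allows up to 0.41 CPM (3 counts, counting error only).

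The receptor side of the TNFα comparison was then considered. TNFRSF1A, the main TNFα receptor of parenchymal cells, stood at 94.4 CPM in stromal-like VC cells and 96.3 under TNFα, a ratio of 1.02 (95% counting interval 0.897 to 1.16), against 43.9 and 51.0 CPM in all other cells and 89.3 and 89.8 in podocyte-gated cells. TNFRSF1B, the receptor best known from leukocytes, had 13 UMIs under VC and 11 under TNFα (1.78 and 2.83 CPM). Both libraries therefore held far more TNFRSF1A than TNFRSF1B RNA in these cells.

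Of 11869 genes with enough UMIs in stromal-like cells, 122 (1.03%) were at least 2-fold higher under TNFα and 41 (0.345%) at least 2-fold lower. Over the same genes in all other cells, 73 were higher and 7 lower, with 53 higher in both and 2 lower in both. The balance in stromal-like cells rested on the setting, with 92 higher and 153 lower under the stricter gate and 230 and 242 at a pseudocount of 1 CPM. The median of all genes differed between the libraries by -0.06 (log2) in stromal-like cells. The 15 most increased genes are described first. All intervals below cover counting error only, and the 2 libraries, not the 2 conditions, are what the ratios compare.

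CCL2, which draws monocytes into tissue (ENSG00000108691, chromosome 17, 34255274 to 34257208), stood at 111 CPM under VC and 2779 under TNFα, a ratio of 25.0 (23.3 to 26.9). It was not particular to stroma, since podocyte-gated TNFα cells held 3837 CPM and the ratio in all other cells was 47.4. IL32, a cytokine gene, stood at 25.3 and 944 CPM (37.3, 32.2 to 43.5), with 1271 CPM in podocyte-gated TNFα cells. CXCL10, which attracts T cells (ENSG00000169245, chromosome 4, 76021118 to 76023497), stood at 7.66 and 238 CPM (31.0, 23.7 to 41.4), against 43.6 in podocyte-gated TNFα cells. The adhesion molecule VCAM1, which binds integrins of leukocytes (ENSG00000162692, chromosome 1, 100719742 to 100739045), stood at 92.2 and 827 CPM (8.96, 8.25 to 9.75), against 59.1 in podocyte-gated TNFα cells. FDCSP, a small secreted peptide of follicular dendritic cells (ENSG00000181617, chromosome 4, 70226124 to 70235252), went from 22 to 4529 UMIs, or 3.01 to 1166 CPM, against 30.4 in podocyte-gated TNFα cells. CCL2 and IL32 were thus shared with podocyte-gated cells, and CXCL10, VCAM1 and FDCSP stood at a higher level under TNFα in stromal-like than in podocyte-gated cells, without a test of that difference. The TNFα over VC ratio of VCAM1 was lower in stromal-like than in all other cells on both scales used, and the order for CXCL10 and FDCSP depended on the scale. As plain ratios they were 31.0 and 81.6 for CXCL10, 8.96 and 14.1 for VCAM1, and 387 (255 to 619) and 679 (467 to 1031) for FDCSP, over 0.889 CPM of CXCL10 and 0.289 of FDCSP in other VC cells. On the log2 (CPM + 10) scale they were 3.81 and 2.92 for CXCL10, 3.03 and 3.19 for VCAM1, and 6.498 and 4.33 for FDCSP. The 10 TNFα cells kept out by the vessel-wall genes held 1038 CPM of VCAM1 (55 UMIs) and 302 of CXCL10 (16 UMIs).

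**Figure D3:**
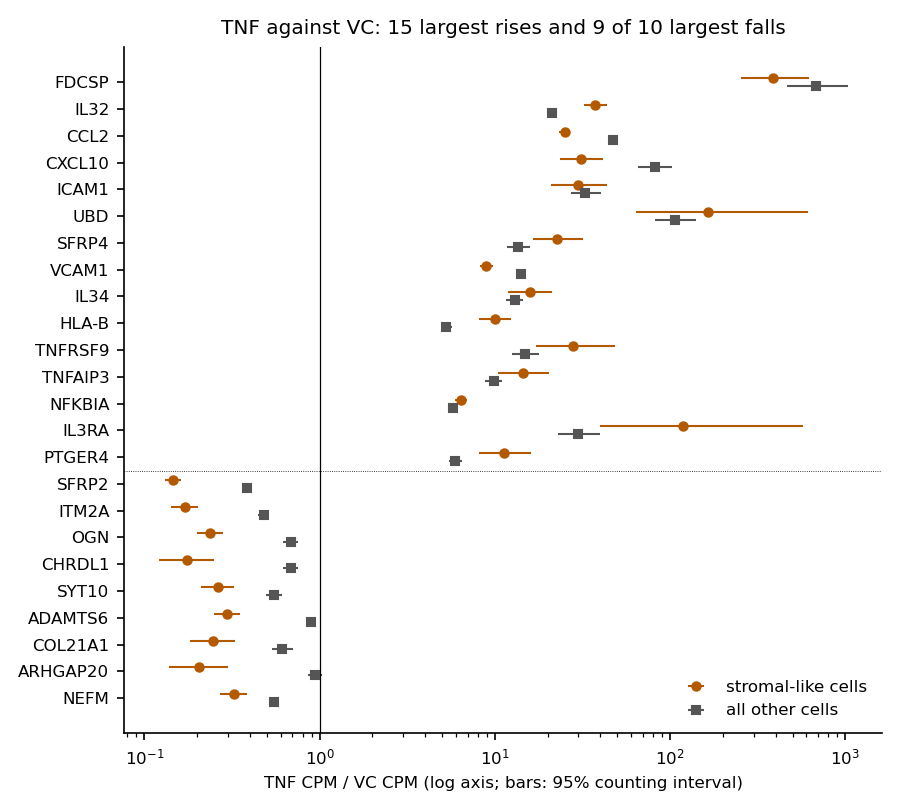
Ratio of TNFα over VC in CPM (log x axis) for the 15 most increased and 9 of the 10 most decreased genes of stromal-like cells (y axis), with 95% counting intervals, beside the same ratio in all other cells. CCL2 lay at 25.0 in stromal-like cells and 47.4 in all others, and SFRP2 at 0.146 and 0.385.

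Shares of cells with a UMI gave these levels per cell, with every cell thinned to 2500 UMIs. CCL2 was found in 12.6% of stromal-like VC cells and 85.4% of TNFα cells (19.9% and 90.3% unthinned), and in 86.5% of podocyte-gated and 18.8% of neuron-gated TNFα cells. Neuron-gated cells stand here for cells that should lack stromal RNA. VCAM1 was found in 15.9% and 70.5% (24.3% and 78.0% unthinned), against 11.1% of podocyte-gated and 5.32% of neuron-gated TNFα cells. CXCL10 was found in 1.01% and 29.5% (1.44% and 35.3% unthinned), against 7.69% and 2.84% in those gates. Before thinning, the median TNFα cell held 3780 UMIs in the stromal-like gate, 3900 in the podocyte gate and 4213 in the neuron gate. Each of these genes was therefore above the neuron background in stromal-like cells under TNFα, in most cells for CCL2 and VCAM1 and in a minority for CXCL10.

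Other genes among the 15 were rare under VC. ICAM1, an adhesion molecule for leukocyte integrins, stood at 4.52 and 134 CPM, and SFRP4, a secreted Wnt modulator, at 5.61 and 127. UBD, a ubiquitin-like protein, had 4 UMIs under VC and 351 under TNFα (a ratio of 165, 63.9 to 609), and IL3RA, a cytokine receptor chain, had 3 and 188 (118, 39.7 to 577). IL34, a ligand of CSF1R, stood at 7.53 and 119 CPM, TNFRSF9, a receptor of T-cell costimulation, at 2.33 and 64.9, and PTGER4, a prostaglandin receptor, at 5.61 and 63.6. Feedback inhibitors were also in the group: TNFAIP3, which edits ubiquitin chains at the receptor, stood at 5.88 and 84.9 CPM, and NFKBIA, which holds NF-κB in the cytoplasm, at 115 and 734. HLA-B, a class I antigen-presenting molecule, stood at 14.2 and 142 CPM, with the limit that its reads can be split with its class I paralogs.

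Promoters of these genes are shown because TNFα acts through NF-κB. RefSeq promoters of GRCh38.p14, from 250 bases before to 50 after the gene start, were found for 12 of the 15 increased genes and searched on both strands for the 10-base NF-κB consensus. Of these, 9 held a match (CXCL10, HLA-B, IL32, NFKBIA, PTGER4, TNFAIP3, TNFRSF9, UBD and VCAM1), against 11.3% of all 35116 promoters, 1 of 7 of the decreased genes and 1 of 15 of the leading genes. The last 2 were the same gene, SFRP2. The TATA letters TATAAA, searched only on the strand of the gene, were in 3 of the 12 and in 7.33% of all promoters. The promoters of CXCL10 (chr4:76023448-76023747, minus strand, matches starting 177 and 122 bases before the start), VCAM1 (chr1:100719492-100719791, plus strand, 62 bases before) and SFRP2 (chr4:153789034-153789333, minus strand, 35 bases after) are given below, 5′ to 3′, with each match in capitals.
CXCL10: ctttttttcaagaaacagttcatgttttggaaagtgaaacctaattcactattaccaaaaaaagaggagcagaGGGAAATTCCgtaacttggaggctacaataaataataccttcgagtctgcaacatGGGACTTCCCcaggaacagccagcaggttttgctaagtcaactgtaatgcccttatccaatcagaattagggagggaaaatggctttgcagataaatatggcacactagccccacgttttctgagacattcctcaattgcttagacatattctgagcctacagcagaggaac
VCAM1: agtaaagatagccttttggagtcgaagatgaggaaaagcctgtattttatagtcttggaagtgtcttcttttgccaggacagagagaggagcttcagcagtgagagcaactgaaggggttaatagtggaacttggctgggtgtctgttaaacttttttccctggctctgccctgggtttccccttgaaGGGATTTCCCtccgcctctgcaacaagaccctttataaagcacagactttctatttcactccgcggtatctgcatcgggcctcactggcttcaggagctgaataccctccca
SFRP2: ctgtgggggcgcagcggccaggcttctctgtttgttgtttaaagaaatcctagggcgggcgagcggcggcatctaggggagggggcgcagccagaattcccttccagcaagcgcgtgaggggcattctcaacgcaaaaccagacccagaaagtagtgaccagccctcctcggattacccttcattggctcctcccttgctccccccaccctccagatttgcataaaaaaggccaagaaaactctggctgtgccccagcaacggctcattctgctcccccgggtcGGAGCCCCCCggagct
CXCL10 and VCAM1 were higher under TNFα and SFRP2 was lower. The SFRP2 match was the 1 of 7 among the decreased genes (14.3%), beside 11.3% of all promoters. A link between a match and the direction was not tested. A match is a run of letters, and binding was not measured here.

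Lists of inflammatory genes showed how wide the response of stromal-like cells was, beside the 1.03% of all genes that were higher. Of 12 chemokines and cytokines 8 were higher and none lower, with a median log2 ratio of 1.63. CXCL8 and CXCL6, which attract neutrophils, had no UMI under VC and stood at 32.4 and 17.0 CPM under TNFα, at least 79.0-fold and 41.4-fold higher than a floor of 3 counts per library, and PTX3 stood at 19.8 and 81.3 CPM. Of the 126 UMIs of CXCL8, 114 lay in 1 subcluster of 71 cells, 15.5% of which held a UMI, at 197 CPM against 3.63 in the other members. With those genes at the floor the median stayed 1.63. Of 14 NF-κB subunits and inhibitors 5 were higher (median 0.61), including RELB at 13.4 and 94.0 CPM and NFKB2 at 13.3 and 70.8, while RELA stood at 33.1 and 36.3. Of 18 genes of the TNF receptor complex 4 were higher, among them BIRC3, an inhibitor of cell death, with 3 and 63 UMIs. Of 16 class I antigen-processing genes 9 were higher (median 1.07), with B2M, the light chain, at 742 and 1569 CPM and the immunoproteasome subunit PSMB9 at 0.821 and 27.5. Of 12 complement genes 3 were higher, the proteases C1R (35.0 and 91.6 CPM) and C1S (20.7 and 96.5) and the central component C3, which had 4 and 81 UMIs. The C3 call was lost under the stricter gate. Of 31 interferon-type genes only IRF1 (27.4 and 91.4 CPM) and UBD were higher, and ISG15 (80.2 and 77.0) was not. In all other cells the counts for these lists were 6 chemokine, 4 NF-κB, 3 receptor complex, 5 class I, 2 complement and 2 interferon-type genes.

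The 10 most decreased genes were led by SFRP2, ITM2A and OGN. SFRP2 (ENSG00000145423, chromosome 4, 153780591 to 153789083) stood at 629 CPM under VC and 91.9 under TNFα, a ratio of 0.146 (0.131 to 0.163), and was found in 50.8% and 17.4% of thinned cells, against 1.06% of neuron-gated TNFα cells. OGN stood at 164 and 39.1 CPM (0.238), ITM2A, a membrane protein, at 206 and 35.3 (0.171, 0.142 to 0.204) and CHRDL1, which binds BMP ligands, at 51.3 and 9.01 (0.176). The metalloprotease gene ADAMTS6 stood at 138 and 40.9, COL21A1 at 57.2 and 14.2 and ARHGAP20, a regulator of small GTPases, at 38.7 and 7.98. All 10 decreased genes were also below 1 in all other cells, from 0.385 for SFRP2 to 0.940 for ARHGAP20, though only 2 genes in all passed 2-fold in both. SYT10, a synaptotagmin of vesicle release, stood at 100.02 and 26.3 CPM, against 2.39 and 2.74 in neuron-gated cells, and was found in 20.2% of thinned stromal-like VC cells against 0.476% of neuron-gated ones. NEFM, a neurofilament gene of neurons, stood at 121 and 39.1 CPM, and neuron-gated VC cells held 2310 CPM of it. The neuron list as a whole summed to 590 CPM under VC and 483 under TNFα in stromal-like cells, and its part in the NEFM ratio was not tested.

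PDGFRA, the receptor that marks interstitial fibroblasts (ENSG00000134853, chromosome 4, 54229280 to 54298245), stood at 338 CPM under VC and 164 under TNFα, a ratio of 0.484 (0.443 to 0.529), against 56.5 and 61.0 in all other cells. It was found in 54.8% and 32.9% of thinned stromal-like cells, against 1.90% and 6.03% of neuron-gated cells. Of 29 stromal transcription factors OSR1 alone was lower (31.9 and 6.95 CPM) and none higher, with a list median of -0.44, against -0.06 over all genes. MEIS1 and MEIS2, homeobox genes of kidney stroma, stood at 232 and 166 and at 561 and 366 CPM. Of 29 proteoglycan, elastic fibre and matricellular genes 4 were higher and 4 lower. The higher ones were TNC, THBS1, CCN1 and CCN2 (80.5 and 274 CPM), matricellular genes of wound repair, and the lower ones OGN, ASPN, ELN and IGFBP5 (3121 and 1538 CPM). Of 27 collagen genes COL21A1 was lower and none higher, and FN1, fibronectin, stood at 182 and 163 CPM. ACTA2 stood at 451 and 807 CPM (1.79, 1.70 to 1.88), and no contractile gene passed 2-fold on the (CPM + 10) scale. TIMP1, an inhibitor of matrix proteases, stood at 409 and 584.

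The stromal-like cells were not uniform. Clustered within each library, they fell into 7 subclusters under VC and 4 under TNFα, which are given by their leading genes. In the VC library the largest, 567 cells (43.1%), was led by OLFM3 and ADAMTS19 and held 1015 CPM of RSPO3 and 1022 of SFRP2. A second, 313 cells (23.8%), was led by CHODL and ALX1 and held 161 CPM of RSPO3 and 126 of SFRP2. The third, 215 cells (16.3%), was led by MPPED2, SEMA3D and AGTR2, with 959 CPM of RSPO3, a counting interval (905 to 1015) that met that of the first (978 to 1052). A contractile group of 45 cells (3.42%) was led by ACTG2 and held 2733 CPM of ACTA2, 4034 of TAGLN and 1466 of MGP. This contractile group held 1144 CPM of a list of epithelial markers, against 391 in the other members. For the proximal tubule list the values were 113 and 23.8, and for the podocyte list 249 and 733. A doublet score above 0.15 was held by 8.89% of the group. A group of 75 cells (5.69%) was led by SST and NPY, with 3.1 CPM of ACTA2, and 62 cells (4.71%) were led by the DNA replication genes CLSPN and TYMS. The last 40 cells (3.04%) were led by CXCL14 but held 598 CPM of the podocyte gene PODXL, and 27.5% of them had a doublet score above 0.15.

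Under TNFα the largest subcluster, 451 cells (53.4%), was led by RSPO3, SLC22A3 and SFRP4 and held 356 CPM of CXCL10 and 617 of C7. A contractile subcluster of 71 cells (8.41%) was led by CXCL8 and NNMT, and held 2327 CPM of ACTA2, 3925 of TAGLN, 893 of CCN2, 5297 of CCL2 and 2172 of FDCSP. Cells led by the replication genes PCLAF and TYMS, 144 (17.1%), held 50.1 CPM of CXCL10 and 298 of VCAM1. The remaining 178 cells (21.1%) were led by podocyte genes and SOST, held 1550 CPM of the podocyte list against 525 in the other members, had a median of 2581 UMIs, and in 20.8% a doublet score above 0.15. Without the subclusters that held podocyte genes, the TNFα over VC log2 ratios on (CPM + 10) were 4.65 for CCL2, 3.12 for VCAM1, -2.68 for SFRP2 and -1.09 for PDGFRA, against 4.53, 3.03, -2.65 and -1.0 with them. Subclusters of the 2 libraries were made separately, and their sizes are not compared.

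**Figure D4:**
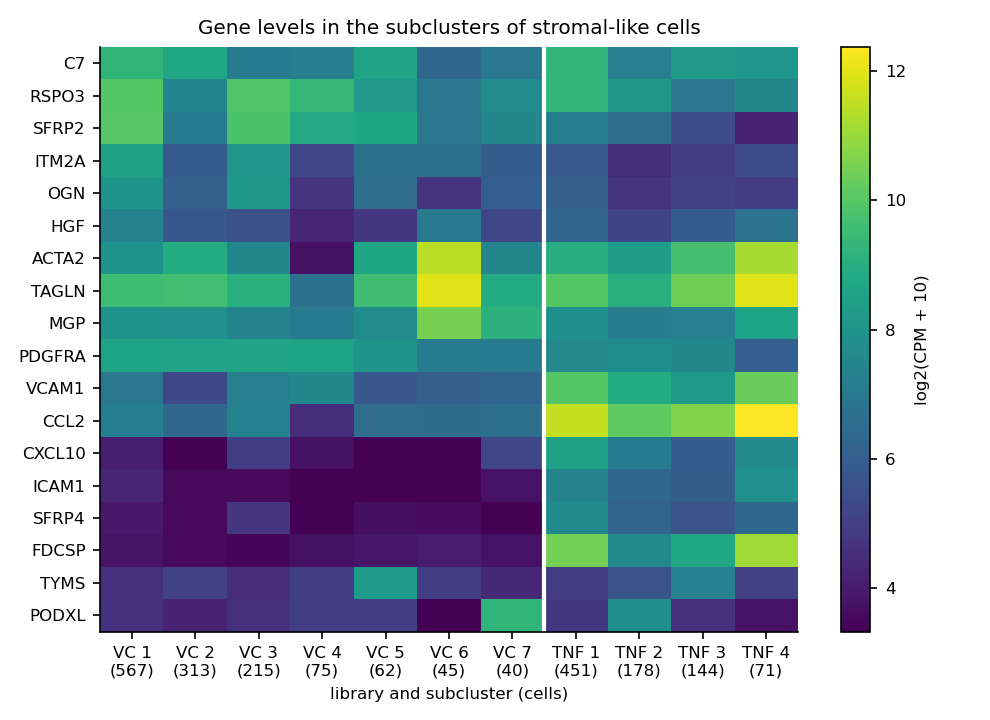
Level of selected genes (rows) as log2(CPM + 10), coded by color, in each subcluster of stromal-like cells (columns, with library and number of cells, VC left of the white line). The contractile subclusters held the most ACTA2, 2733 CPM under VC and 2327 under TNFα.

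Bulk RNA of organoid spheroids gave libraries that the gate had not used. A change in bulk can come from the number of cells of a type or from RNA per cell, which cannot be told apart here. Between days 21 and 29 in set 2, 2778 of 27650 genes (10.0%) rose and 2303 (8.33%) fell (limma with a mean trend, Benjamini-Hochberg adjusted p under 0.05). With each library centred on its median the split was 2408 higher and 4667 lower, with a shift of -0.098. Without day 21 replicate 1 or 2 the counts dropped to 1571 and 964 or to 1398 and 960, and without day 29 replicate 2 to 1891 and 1443. All 20 leading genes rose, with a median log2 change of 2.92 against -0.02 over all genes, and the 20 differences of set 1, which has no test, were also positive. Of the 357 genes that were higher in stromal-like VC cells, 355 were measured, of which 296 rose and 6 fell. Of the 526 genes that were lower, 524 were measured, of which 101 rose and 162 fell.

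C7 read 5.55 and 4.69 (deposited log2 values) on day 21, 7.48 and 7.72 on day 25, and 8.34 and 9.0 on day 29, with no overlap between days. Its day 29 change was 3.55 (SE 0.29, limma adjusted p = 0.000233), and set 1 differed by 2.71. OGN read 1.03 and 0.31, then 3.66 and 3.61, then 5.38 and 5.94, a change of 4.99 (SE 0.26, limma adjusted p = 6.94e-05), the largest of the 20. SFRP2 read 3.44 and 3.63, then 4.72 and 4.37, then 5.53 and 6.44, a change of 2.45 (SE 0.26, limma adjusted p = 0.000714). The smallest of the 20 was IGFBP3, which binds insulin-like growth factors, at 0.91 (limma adjusted p = 0.00131) and 0.08 in set 1. PDGFRA rose by 1.51. Over the same days 7 of 13 podocyte markers fell and none rose, and 11 of 13 neuron markers rose, so the stromal genes were not the sole group to rise, and the part of each cell type in these values was not tested.

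**Figure D5:**
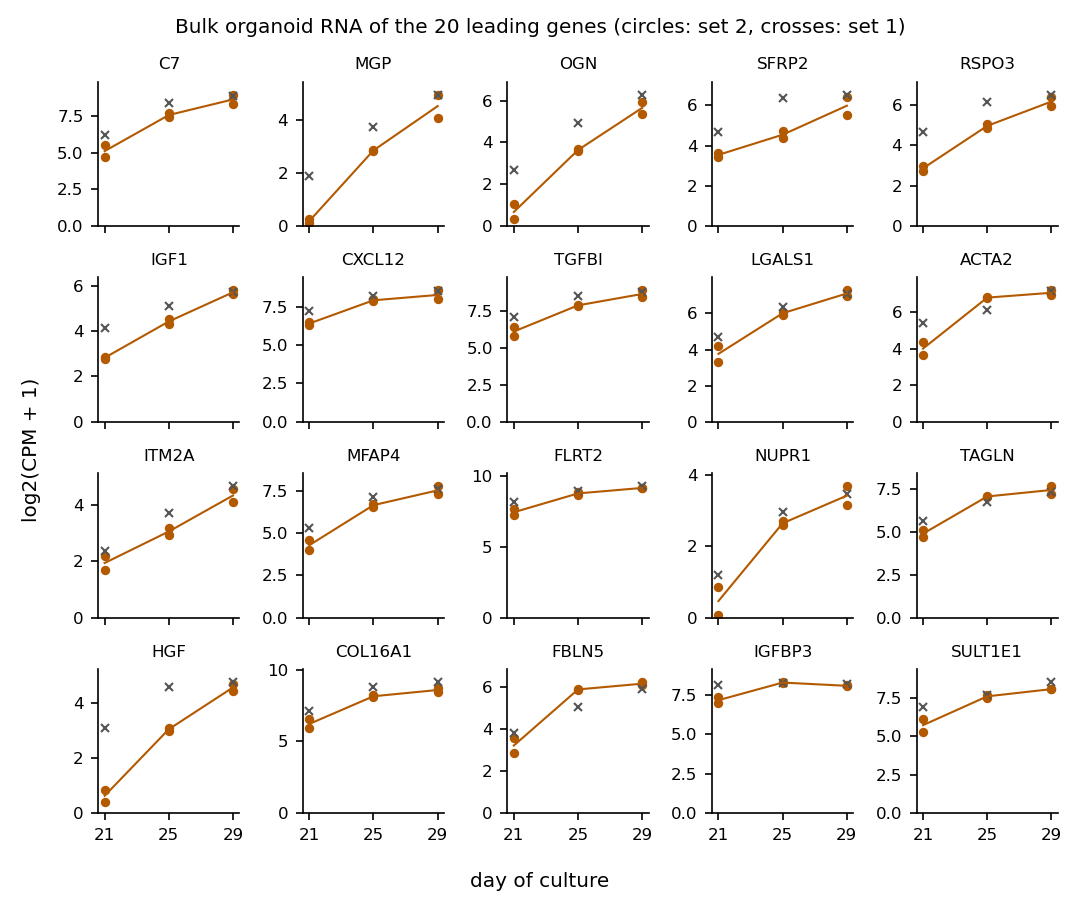
Deposited bulk log2(CPM + 1) (y axis) of each of the 20 leading genes by day of culture (x axis). Circles are the 2 set 2 libraries of each day, lines join their means and crosses are set 1, and C7 climbed from 5.55 and 4.69 on day 21 to 8.34 and 9.0 on day 29.

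In the bulk TNFα set, treatment was tested with time as a further term, so that the 24 h and 48 h pairs stood in for replicates. Each condition held 1 library at each time. The SE and p-values of this set therefore rest mainly on spread that limma pooled over all genes. They say little about the spread of a single gene. Of 21093 genes, 1776 (8.42%) rose and 2285 (10.8%) fell (limma, adjusted p under 0.05). The split was 2322 higher and 2133 lower with edgeR and 1198 and 970 with DESeq2, so which direction held more genes rested on the tool. Of the 15 most increased stromal genes, 14 had a bulk value and all 14 rose; UBD had none. Of the 122 genes that were 2-fold higher in stromal-like cells 118 were measured, and 101 rose and none fell. Of the 41 that were 2-fold lower 40 were measured, and 22 fell and 1 rose.

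CCL2 read 3.32 under VC and 7.62 under TNFα at 24 h, and 3.39 and 7.23 at 48 h, a change of 4.07 (SE 0.09, limma adjusted p = 4.36e-15). VCAM1 read 4.34 and 8.95, then 4.87 and 8.54, a change of 4.14 (SE 0.13, limma adjusted p = 3.25e-13). FDCSP read 0.21 and 4.48, then 0.35 and 3.497, a change of 3.71. In these genes both TNFα libraries were above both VC libraries. C3 read 2.32 and 5.85, then 2.25 and 4.98, a change of 3.13, in bulk RNA where stromal-like cells held few UMIs of it.

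Of the 10 most decreased stromal genes, 5 fell in bulk (SFRP2, OGN, CHRDL1, SYT10 and COL21A1) and none rose, and the SYT10 call was lost with DESeq2 (adjusted p = 0.16). SFRP2 read 3.68 under VC and 3.08 under TNFα at 24 h, and 4.89 and 3.70 at 48 h, a change of -0.90 (SE 0.12, limma adjusted p = 3.05e-05). OGN read 2.92 and 2.46, then 3.498 and 2.65, a change of -0.66 (SE 0.12, limma adjusted p = 0.000812). For SFRP2 the VC library at 24 h lay below the TNFα library at 48 h, so the fall showed within each time. PDGFRA fell by 0.27 (SE 0.06, limma adjusted p = 0.00476), a call lost with DESeq2 (adjusted p = 0.0638) and with limma without the mean trend (0.0699). ITM2A changed by -0.18 (limma adjusted p = 0.272) and TNFRSF1A by -0.03 (limma adjusted p = 0.806). MGP went the other way in bulk, from 2.04 to 3.42 at 24 h and from 2.095 to 3.77 at 48 h, a rise of 1.53, where stromal-like cells read 312 CPM under VC and 216 under TNFα and all other cells 25.4 and 45.4. Of the 20 leading genes 11 rose and 3 fell in bulk under TNFα, and the rise of ACTA2 (0.65, limma) was lost with DESeq2 (adjusted p = 0.15). In the same libraries 13 of 13 podocyte markers fell, with a median log2 change of -0.84, and 10 of 12 proximal tubule markers fell, with a median of -0.79, and the part of these cell types in the bulk values was not tested.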

How the data were processed

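The authors deposited single-cell UMI counts as filtered matrices of 36601 genes. The labels name Cell Ranger 2.1.1 and the matrix header 6.0.1, and neither gives the genome build. For the bulk tables the authors deposited log2(CPM + 1) values, which per the labels come from STAR 2.7.8a, HTSeq 0.11 and voom. They rest on 19073609 to 59246286 reads per library, and whole reads were recovered from the values of set 2 and the TNFα set. Bulk tables were normalized separately and were not compared by level.

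The members and gene lists were chosen with earlier results of these data known. UMIs were summed per library and gate with scipy 1.17.1 and numpy 2.4.6, and a pseudocount of 10 CPM was used on the log2 scale. Podocyte reference cells passed the thresholds of the gate with 4 podocyte genes (NPHS1, PTPRO and PODXL among them), and neuron reference cells with STMN2, ELAVL3, ELAVL4 and DCX, outside the stromal gate. The genes named are the 20 leading genes (largest VC ratio, at least 50 UMIs, 2-fold in TNFα too), the 15 largest increases and 10 largest decreases, examples from the lists and genes that the study names. Gate, mitochondrial and ribosomal genes were left out of the ranks. Sex-linked genes were not left out as a whole, since ITM2A, CHRDL1 and IL3RA of chromosome X are ranked. A few genes that these rules pick are not reported here. Doublet scores came from Scrublet (run through scanpy 1.11.5), whose automatic threshold called no cell, so all cells stayed in. Subclusters came from Leiden clustering (2000 variable genes, 20 components, 15 neighbours, resolution 0.4).

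Bulk models used limma 3.58.1 under R 4.3.3, with edgeR 4.0.16 and DESeq2 1.42.0 on recovered reads as alternatives. Gate form, doublet score, pseudocount, scaling, thinning, centring and left-out libraries were varied too. Code was tested on simulated data.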

Additional observations from a re-analysis of the deposited data

Results flagged for a closer look

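Some genes that marked the stromal-like cells, or that the study names, were lower under TNFα in these cells and higher in all other cells. Each value is a ratio of CPM between 1 library and another, and the difference between the ratios was not tested. MGP stood at 0.692 in stromal-like cells and 1.78 in all others. RSPO3 stood at 0.61 and 1.65, CXCL12 at 0.607 and 1.57, TGFBI at 0.774 and 1.49, and MFAP4 at 0.796 and 1.27. FLRT2, a membrane protein of cell adhesion, stood at 0.733 and 1.63, HGF at 0.718 and 1.52, FBLN5 at 0.651 and 1.17 and IGFBP3 at 0.896 and 1.5. PDGFRA stood at 0.484 and 1.08, and MEIS1 at 0.716 and 1.22. Beside these, gate genes took a median of 3.71 UMIs per 10000 in all other VC cells and 12.5 in all other TNFα cells. The share of members was 11.1% and 3.64%. The part of both shifts in these opposite ratios was not tested.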

How the results depend on the processing

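The share of stromal-like cells under VC and TNFα was 2.23% and 0.255% with a stricter gate, 20.6% and 20.9% with a looser one, 12.6% and 4.11% without the exclusions, 11.4% and 4.22% without doublet scores above 0.15, and after thinning 13.1% and 6.64% at 2500 UMIs and 14.1% and 7.64% at 1500. At 1500 UMIs the gate's minimum was also lowered, from 10 to 6 UMIs, so depth was not the sole change. The planned doublet removal called no cell and gave no values. The scores above 0.15, the subclusters with podocyte genes and the gate range were chosen after seeing the data.

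Under TNFα the 191 genes higher than in other cells became 470 with the stricter and 71 with the looser gate, and the 309 lower genes 672 and 58. A pseudocount of 1 gave 912 higher and 1949 lower under VC, 518 and 1670 under TNFα, and 230 and 242 for TNFα against VC. A 4-fold limit gave 58 and 92, 9 and 41, and 23 and 2. The stricter gate gave 92 higher and 153 lower for TNFα against VC. Over the settings that can move a ratio, 303 of 374 values of the named genes for TNFα against VC kept their direction and size and 71 moved in size. For stromal-like against other cells 331 of 640 did, 308 moved and 1 reversed. C3 in stromal-like over other TNFα cells reversed under the stricter gate, to -0.16 from 1.084 (log2), and C3 under TNFα against VC ran from 0.45 with that gate to 3.82 with a pseudocount of 1, against 1.55. ACTA2 ran from 0.23 (looser gate) to 0.97 around 0.83, and PDGFRA from -1.22 to -0.61 around -1.0. The 7 and 4 subclusters became 5 and 3 at resolution 0.2, 12 and 9 at 0.8, and 3 and 4 with 30 neighbours.

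Day 29 gave 2408 higher and 4667 lower genes with centring, 3234 and 2318 with edgeR, 2700 and 1763 with DESeq2, and 976 and 403 at an absolute log2 change of 1 or more (621 and 283 in set 1). Leaving out 1 library gave 1398 to 2964 higher and 960 to 2453 lower. A replicate block gave 3149 and 2907. Across genes, the deviations between same-day replicates correlated between days at 0.143, 0.0753 and 0.27. The replicate numbers were therefore taken as names only. TNFα gave 2322 and 2133 with edgeR, 1198 and 970 with DESeq2, and 227 and 149 at an absolute change of 1 or more (270 and 154 at 24 h, 225 and 159 at 48 h). The cause of these differences was not tested. Precision rests on 1 single-cell library per condition, and a count of 0 in stromal-like VC cells allows 0.41 CPM.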

Other observations

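Gene groups outside the comparisons above are given beside the background over all genes in stromal-like cells, of which 1.03% were 2-fold higher and 0.345% 2-fold lower under TNFα. Of 15 basement membrane genes none was 2-fold higher or lower under TNFα in stromal-like cells, with COL4A1 at 258 and 454 CPM. Of 12 retinoic acid pathway genes 2 were lower and none higher. ALDH1A2, which makes retinoic acid, stood at 216 and 84.7 CPM and CRABP1, which binds it, at 186 and 71.3. None of 29 HOX genes passed 2-fold, with a median of -0.33 in stromal-like cells and -0.29 in all others. Of 20 immediate early and heat shock genes only JUNB (46.0 and 155 CPM) passed. None of 14 antioxidant and metal response genes passed, with SOD2, a mitochondrial enzyme induced by NF-κB, at 23.1 and 51.0 CPM.

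Among growth factors, PDGFC stood at 29.7 CPM under VC and 83.7 under TNFα, and PDGFRA, whose product its protein binds, at 338 and 164. Among leukocyte adhesion molecules, CD58 (4.65 and 23.7 CPM) and JAM2 (11.2 and 35.0) were higher beside ICAM1 and VCAM1, and ALCAM (353 and 158) was lower. Of 9 mural markers only RGS5 was 2-fold higher (6.70 and 33.7 CPM), while the list summed to 267 CPM under VC and 227 under TNFα and PDGFRB stood at 128 and 69.5. Of 3 tendon markers with enough UMIs the transcription factor SCX was lower (63.4 and 21.6 CPM) and 0 were higher. The median log2 ratio of that list was 0.23. Among matrix turnover genes MMP9 had 8 and 58 UMIs and stood at 1.2 and 16.3 CPM in all other cells, a ratio of 13.6 in both groups.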
